A study of Mus musculus with 7 samples.

Results

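CMCT against non-treated (NT) RNA was measured by CIRS-seq in E14 mESC, a mouse embryonic stem cell line of strain 129/Ola. CMCT is a carbodiimide that reacts with unpaired bases, and the reverse transcriptase (RT) halts 1 base downstream of the adduct. The 4 libraries described here, of 7 in the series, were chosen by their labels as 2 CMCT replicates and 2 NT replicates, and no library treated with DMS was used. Every library came from a cell lysate that had been incubated with Proteinase K, so the RNA was probed without its proteins. CMCT was applied at 10, 20, 25 and 50 mM for 20 min at 30 °C and the doses were pooled, so the libraries carry no dose information. The NT libraries came from aliquots that received no reagent. rRNA was depleted in all 4 libraries and cDNA was primed with random hexamers. The counts cover 26827 transcripts, of which 1 per gene symbol was kept, giving 12030 symbols.

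CMCT adds to N3 of unpaired uridine and of pseudouridine, and less readily to N1 of unpaired guanosine, whereas adenosine and cytidine are poor targets. An RT stop at an adduct is thus informative on the pairing of a uridine. RT also halts without reagent, at the 5′ end of an RNA, at stable structures and at natural base modifications, and the NT libraries record these halts. Small structured RNAs were of special interest here. The snRNAs are the RNA cores of the spliceosome, snoRNAs guide the modification or processing of rRNA, and mitochondrial tRNAs and rRNAs serve translation inside mitochondria.

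The sequences below are sites with a higher stop count in CMCT, with the listed position in capitals and up to 10 bases on either side, read from GENCODE vM1 transcripts on mm9. Those of U3, mt-Tv, AC099934.1 and the U2-like snRNA AC120136.2 were sites of highest ratio in the RNA with the most stops of its kind. All others came from the RNA of a gene list with the most stops at positions found once. Only such positions, defined below, were ranked by ratio in these list members. The second rule was added after values had been seen. For U3, AC120136.2, AC099934.1 and RNase_MRP, in which position 3 ranked first, the site ranked next is shown as well, and for mt-Tv both highest sites are shown.
U3 position 3: aaGacuauacuuu
U3 position 37: uauaguucguUacuagagaag
AC120136.2 position 3: auCgcuucucggc
AC120136.2 position 46: guaucuguucUuaucaguuua
mt-Tv position 19: agcuuaauauUaaagcaucug
mt-Tv position 33: gcaucuggccUacacccagaa
AC099934.1 position 3: gcCgggcgcggug
AC099934.1 position 38: ucccagcuacUcgggaggcug
RNase_MRP position 3: gcUcgcucugaag
RNase_MRP position 213: gcucacauagUgacgcaggca
Snord22 position 37: cuacuuccugUccuagcucca
Snora81 position 100: gaaaaguaacUgcacuggauu
Rpl8 position 804: accaaaacugUacaggagaag
mt-Rnr2 position 414: acaaaaucaaAaaguaaguuu
mt-Co1 position 690: acccaauucuCuaccagcauc
Hist1h2bm position 180: cgguguacguGuacaaggugc
These sites are a selection and their bases are no tally. The highest site was a uridine in 3 of the 10 RNAs with the most stops of their kind, and in 9 of the 13 RNAs chosen from the lists at positions found once, in which Snord22 and its host Snhg1 are the same site. The U3 copy lies at chr11:87284870-87285083 on the plus strand, AC120136.2 at chr1:72283520-72283710 (plus) and mt-Tv at chrM:1025-1093 (plus). RNase_MRP lies at chr4:43505660-43505930 on the minus strand. Snord22 lies at chr19:8800356-8800481 (plus), inside the host RNA Snhg1, and Snora81 at chr16:23110829-23111006 (plus). The gene of Rpl8 spans chr15:76734501-76736748 (plus), and mt-Rnr2 spans chrM:1094-2675 (plus). AC099934.1 lies at chr12:70260282-70260578, mt-Co1 at chrM:5328-6872 and Hist1h2bm at chr13:21813913-21814436, all on the plus strand.

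Several properties of the counts bear on every result. The libraries held 245272270 and 221675761 RT stops (NT replicates 1 and 2) and 338201940 and 181944556 (CMCT replicates 1 and 2), and the kept transcripts held 49.99% to 60.46% of them. Only 4.534% to 7.444% of the stops on kept transcripts lay where the following 25 bases occur once in the genome, here called positions found once. The replicates of a treatment also shared counts. At positions with at least 50 stops over both replicates, the replicates differed by at most 1 stop at 19.26% of positions in NT and at 21.36% in CMCT, and at 27.7% and 30.67% of those found once, although the CMCT totals were far apart. The p-values measure the spread between these libraries, which may be smaller than that of independent samples where counts are shared. Values at positions found once are set beside the main comparisons because the read that follows has 1 place in the genome, although replicates shared counts more often at these positions. All 10 pluripotency markers, among them Pou5f1, Sox2 and Nanog, had stops in every library, from 1005 for Klf4 to 10487 for Nanog. Of the markers of other cells, Pax6 and Col1a1 also had many stops, but only 0.504% and 0.663% of these were at positions found once. Only 3 of the markers listed for other cells were among the counted symbols, whereas all 10 pluripotency markers were. These 3 together held 75379 to 156170 stops per library, against 33831 to 80920 for the 10 pluripotency markers. Among the markers that were counted, stop counts at all positions thus do not tell the cell types apart.

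The RNA kinds with a larger share of stops in both CMCT libraries were the snoRNAs, the mitochondrial rRNAs and tRNAs and the pseudogenes. SnoRNAs took 0.3042% and 0.1839% of the stops in NT and 0.4813% and 0.6429% in CMCT. Both CMCT libraries were above both NT libraries, with means of 0.562% ± 0.114 and 0.244% ± 0.0851 (SD, n = 2 each). U3, whose copies share reads, held 70.77% and 63.9% of the snoRNA stops in NT and 77.61% and 84.72% in CMCT. Without U3, an alternative chosen after seeing the data, the snoRNA share was 0.08909% and 0.06646% in NT and 0.1082% and 0.09875% in CMCT, still without overlap but with a mean difference of 0.0257 percentage points in place of 0.318. The 2 mitochondrial rRNAs held 0.05903% and 0.08521% of the stops in NT and 0.1682% and 0.2827% in CMCT, again without overlap. The 22 mitochondrial tRNAs held 0.06962% and 0.07366% in NT and 0.09545% and 0.1644% in CMCT. Pseudogenes went from 5.186% and 3.632% to 6.288% and 8.074%, but at positions found once they overlapped, with 11.02% and 12.35% in NT and 11.39% and 17.63% in CMCT. For each of these 4 kinds the two-sided exact permutation p was 0.333, the smallest that 2 libraries against 2 can give, so no difference in shares could pass 0.05.

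Protein-coding genes held most stops in every library, with 75.75% and 81.04% in NT and 77.59% and 73.18% in CMCT, and the groups overlapped. The snRNA share was 1.341% and 0.7189% in NT and 1.304% and 3.539% in CMCT. CMCT replicate 2 was the high one, and CMCT replicate 1 was below NT replicate 1. At positions found once, the snRNA share did not overlap, with 0.1894% and 0.2618% in NT against 0.5364% and 0.7351% in CMCT. The rRNA kind, mostly 5S copies, was high in NT replicate 1 at 4.312%, against 0.9731% in NT replicate 2, 1.337% in CMCT replicate 1 and 1.79% in CMCT replicate 2. The snoRNA groups overlapped at positions found once, where NT held 1.364% and 1.194% and CMCT 1.542% and 1.135%. The mitochondrial rRNAs kept their order there, with 0.6293% and 1.542% in NT and 1.968% and 3.04% in CMCT, and so did the mitochondrial tRNAs, with 0.9219% and 1.046% against 1.154% and 1.591%. With positions of near-equal replicate counts also left out, the mitochondrial tRNAs overlapped, with 0.9632% and 1.119% in NT and 1.07% and 1.505% in CMCT. The mitochondrial rRNAs still did not.

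**Figure D1:**
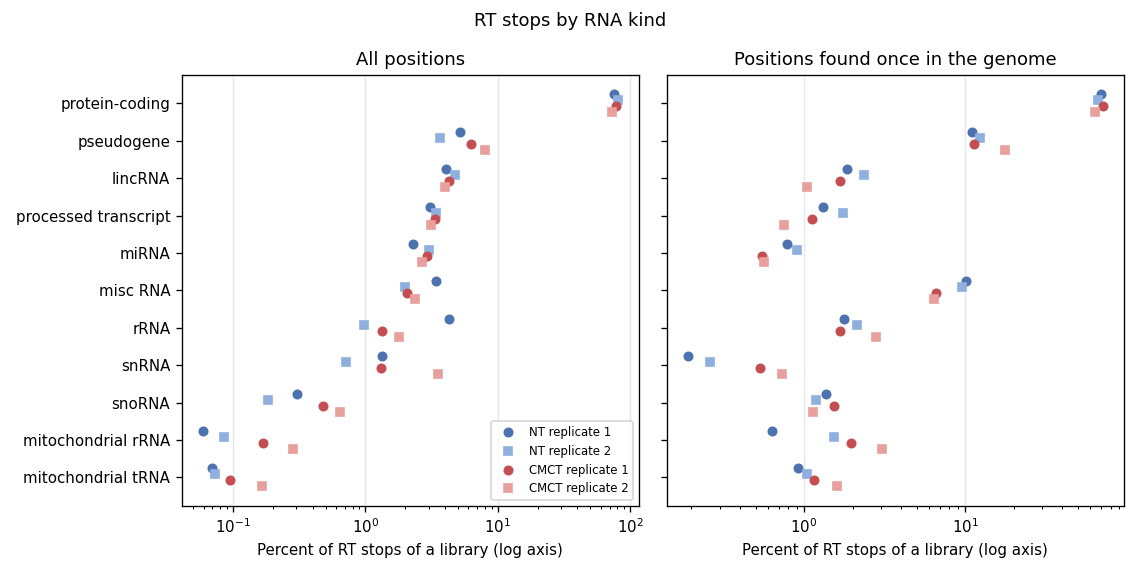
Percent of the RT stops of each library (horizontal log axis) on each RNA kind, at all positions (left) and at positions found once (right), with 1 point per library. At all positions, both CMCT points lie to the right of both NT points for snoRNAs, mitochondrial rRNAs, mitochondrial tRNAs and pseudogenes, and the snRNA points overlap.

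The bases under the stops differed between the treatments, and the libraries did not overlap for uridine, guanosine and cytidine. For each of 6951 genes with at least 5 stops per listed position in each treatment and at least 20 listed positions, the share of stops on uridine was taken, and its median over genes was 30.7% and 31.48% in NT and 36.34% and 37.57% in CMCT. Uridine made up 27.78% of the listed positions of these genes. All 4 libraries were above that level, the CMCT libraries by more. The share on guanosine went the other way, from 15.51% and 17.7% to 13.9% and 13.99%. Cytidine went from 33.26% and 30.8% to 30.49% and 30.16%, and adenosine overlapped. The exact permutation p was 0.333 for uridine, guanosine and cytidine.

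The step on uridine had a different size in each kind of RNA. In the 20 snRNAs, the median share on uridine was 43.58% and 40.55% in NT and 58.53% and 58.95% in CMCT. In the 138 snoRNAs it was 30.56% and 31.64% in NT and 44.41% and 44.78% in CMCT. In the 20 mitochondrial tRNAs it was low in NT, at 17.24% and 13.57%, and reached 28.46% and 36.75% in CMCT. The gaps between the treatments were wider than those between replicates in all 3 of these kinds. In the 4431 protein-coding genes the shares were 31.11% and 31.75% in NT and 36.25% and 37.65% in CMCT, a smaller step. The miRNA precursors had a still smaller step, from 35.98% and 34.75% to 38.78% and 37.44%. The rRNA kind was the exception, since its NT replicates, at 24.67% and 17.42%, enclosed its CMCT replicates at 22.42% and 22.64%.

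At positions found once the order of the treatments was the same in every kind, the rRNA kind included, where NT had 24.5% and 26.32% and both CMCT libraries 29.3%. The snoRNA shares there were 30.04% and 30.77% in NT against 44.75% and 43.72% in CMCT, over 120 genes. The snRNA shares were 43.32% and 40.59% against 54.7% and 54.54%, over 8 genes. The difference between kinds was not tested.

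**Figure D2:**
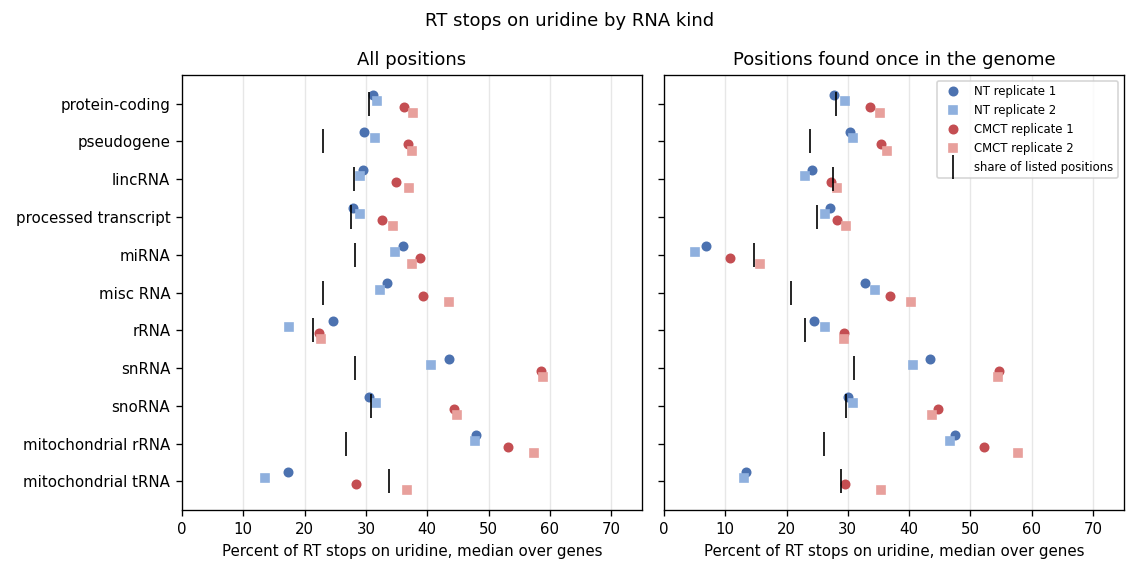
Percent of RT stops on uridine (horizontal axis), as the median over the genes of an RNA kind, for the 4 libraries, at all positions (left) and at positions found once (right). The vertical tick is the uridine share of the listed positions, and the CMCT points lie to the right of the NT points in every kind except rRNA at all positions.

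The same preference was seen position by position. The replicates of a treatment were summed, 1 was added to each position, and the values were scaled to the mean of the transcript before the log2 ratio of CMCT over NT was averaged per base within each gene. Over all kinds, the median log2 ratio was 0.45 on uridine, 0.17 on adenosine, 0.09 on cytidine and 0.02 on guanosine. With a pseudocount of 5 these medians were 0.17, -0.04, -0.07 and -0.13, so the sign on bases other than uridine depended on the pseudocount. The ratio on uridine minus that on adenosine and cytidine had a median of 0.26, and was above 0 in 75.83% of genes. Read 1 base upstream or downstream of the listed position it was -0.02 and 0.01, and at positions found once 0.02 and 0.08 against 0.32 at the position itself, so the deposited position corresponds to the base of the adduct and not to the base where RT halted, 1 base downstream. Its median was 0.19 for CMCT over NT replicate 1 and 0.12 for replicate 2, and it lay between 0.12 and 0.33 under every setting tried. It was 0.91 in snoRNAs, 0.65 in mitochondrial tRNAs, 0.64 in the rRNA kind, 0.46 in snRNAs, 0.44 in pseudogenes, 0.23 in protein-coding genes, 0.11 in processed transcripts and 0.08 in lincRNAs. In protein-coding genes it was 0.10 with a pseudocount of 5, and 0.15 and 0.08 in the same-numbered pairs, and in snoRNAs it was 0.58 with that pseudocount. In processed transcripts it was -0.03 where at least 20 stops per position were required and 0.36 over 56 genes at positions found once, so their place among the kinds depended on the setting. The miRNA precursors had -0.02, with 48.68% of genes above 0, and their sign depended on the setting, with 0.20 where at least 1 stop per position was required, 0.12 without NT replicate 1, 0.02 without CMCT replicate 2 and -0.27 without CMCT replicate 1.

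Guanosine, the lesser target, did not rise above adenosine and cytidine over all kinds, with a median difference of -0.10. It was 0.67 in the rRNA kind and 0.15 in snoRNAs, and at positions found once 0.19 and 0.13. Without NT replicate 1 the values at all positions were 0.19 and 0.055, so both depended on that library. At positions found once, the uridine difference was 0.32 over all kinds, 0.89 in snoRNAs, 0.57 in mitochondrial tRNAs and in the rRNA kind, and 0.34 in protein-coding genes. It was lower there than at all positions in pseudogenes, at 0.20, in snRNAs, at 0.22 over 8 genes, and in miRNA precursors, at -0.34 over 12 genes. Among the gene lists, it was above 0 in 64 of 68 box C/D snoRNAs (median 0.92), 47 of 50 box H/ACA snoRNAs (0.87), 77 of 78 cytosolic ribosomal protein mRNAs (0.66), 74 of 75 histone mRNAs (0.77) and all 13 mitochondrial mRNAs (0.34). All 5 major spliceosomal snRNAs were above 0, with 1.19 for U2, which pairs with the intron branch site, and 0.17 for U5, which holds the exon ends. Copies of 1 family share reads, so these genes are not independent.

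**Figure D3:**
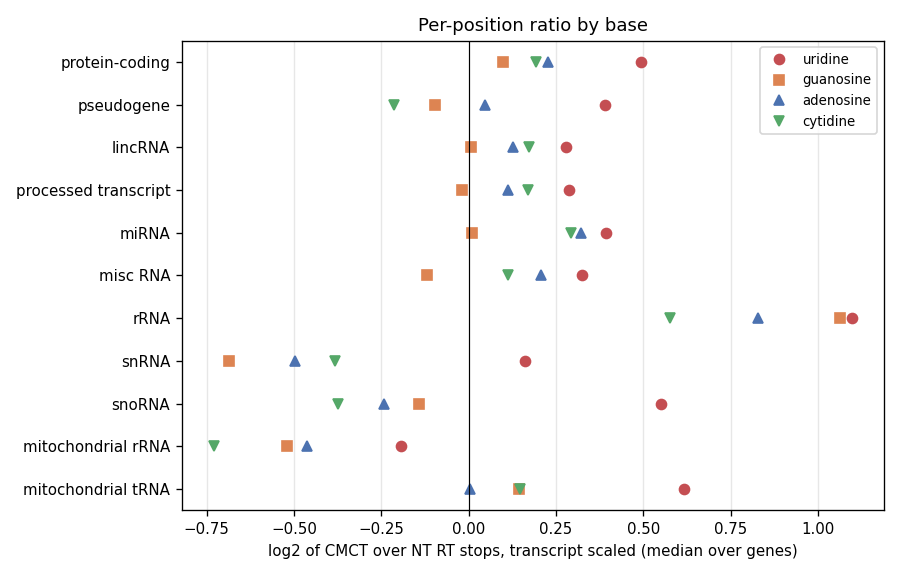
Median over genes of the log2 ratio of CMCT over NT RT stops, each scaled to its transcript mean (horizontal axis), for the 4 bases in each RNA kind. Uridine lies farthest to the right in every kind, by the widest margin in snoRNAs, and guanosine comes close to it only in the rRNA kind.

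In mRNAs, the outcome depended on which positions were counted. Summed over all coding-region positions, the share of stops on uridine was 29.06% and 33.58% in NT and 35.09% and 35.5% in CMCT. In 3′ UTRs, which held 78.59% to 83.66% of these mRNA stops, it ran the other way, with 40.57% and 39.23% in NT and 34.72% and 30.52% in CMCT. At positions found once, 3′ UTRs had 34.26% and 33.8% in NT and 40.06% and 47.39% in CMCT, and held 34.14% to 51.0% of the stops. The 5′ UTRs turned likewise, from 44.07% and 42.97% in NT against 41.92% and 36.4% in CMCT to 31.03% and 30.77% against 35.45% and 34.86%. Coding regions overlapped at positions found once, with 33.01% and 41.14% in NT and 40.49% and 40.16% in CMCT. These are sums over stops and not medians over genes.

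The ratios of single positions were alike in both replicate pairs. Over 155070 positions with at least 100 CMCT stops in all and 10 in each replicate, in transcripts deep enough for a ratio in both pairs, the log2 ratios of the 2 same-numbered pairs correlated with a Pearson r of 0.736 and a Spearman rho of 0.743, across positions that share libraries and often reads. At the 13359 such positions found once, r was 0.778, and it was 0.772 when positions with equal replicates were left out. A log2 ratio of 3 or more in the sum and in both pairs was found at 1489 of 171367 positions (0.869%), in 776 genes. The 171367 have that CMCT depth and a ratio in the sum, and those among them without a ratio in both pairs could not pass. Since depth in CMCT admitted the positions, these counts are a description and no test. Uridine stood at 54.73% of the 1489, against 34.89% of the 171367. Mitochondrial tRNAs had 15 of them, 93.33% on uridine against 38.02% of those with enough stops. The rRNA kind had 158, in 59 genes, with 67.72% on uridine against 22.63%. Among positions found once, 237 of 15964 passed, in 161 genes, and 53.59% were uridines against 38.67%. There the rRNA kind had only 10, 50.0% on uridine against 24.03%, and mitochondrial tRNAs 5, 100.0% against 34.52%. Several kinds had no such excess among positions found once. Uridine made up 47.06% of 17 positions in snoRNAs against 49.29% of those with enough stops, 16.67% of 6 in miRNA precursors against 41.21%, and 23.08% of 13 in mitochondrial rRNAs against 41.72%, where adenosine made up 61.54%. The 13 all lay in 1 mitochondrial rRNA.

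U3, a box C/D snoRNA needed for the processing of pre-rRNA, had the most stops of all snoRNAs. As a whole U3 was not called (log2 fold change 1.01 ± 0.50 SE, edgeR adjusted p = 0.148), nor with RLE scaling (0.84, edgeR adjusted p = 0.409). At position 37 it had 1425 and 1283 stops in NT and 40938 and 39290 in CMCT, which was 0.4599% and 0.8146% of its stops in NT and 5.772% and 7.93% in CMCT. The log2 ratio was 3.52, with 3.65 and 3.28 in the 2 pairs. Most stops of U3 were elsewhere in both treatments, since position 92 alone held 46.23% and 43.5% in NT and 51.68% and 61.01% in CMCT. U3 has 42 copies under its symbol and none of its positions was found once, so the counts cannot be assigned to 1 copy. At position 3 it had 0 stops in both NT libraries and 283 and 59 in CMCT. A count of 0 allows up to 3 stops in a library at 95% confidence, counting error only.

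The U2-like snRNA AC120136.2 had 695 and 369 stops at position 46 in NT and 6784 and 20555 in CMCT, a log2 ratio of 3.49. At position 3 it had 0 and 0 stops in NT and 2707 and 1800 in CMCT, and at position 2 229 and 229 against 6255 and 3653. Both sites were thus high in both CMCT libraries. AC120136.2 as a whole was not called, with 377570 and 135786 stops in NT and 466150 and 703793 in CMCT (log2 fold change 0.99 ± 0.50 SE, edgeR adjusted p = 0.161). Nor was it called with RLE scaling (0.84, edgeR adjusted p = 0.455). Without CMCT replicate 1, the lower of the CMCT libraries, its log2 fold change was 1.52, and without CMCT replicate 2 it was 0.000625. It was 1.52 without NT replicate 1 and 0.47 without NT replicate 2. The rise of AC120136.2 as a whole thus depended on CMCT replicate 2. A pair of other short RNAs also had 0 NT stops at position 3. The misc RNA AC099934.1 had 0 and 0 stops at position 3 in NT and 230 and 80 in CMCT, and 4625 and 3864 against 40605 and 21560 at position 38 (3.20). No stop of AC099934.1 was at a position found once either. RNase_MRP, the RNA of the MRP ribonuclease, had 0 and 0 against 256 and 18 at position 3. Position 3 of mt-Tv was likewise empty in both NT libraries, with 0.01733% and 0.0% of its stops in CMCT. U3 and mt-Tv had NT stops at positions 1 and 2. Why position 3 was empty in NT in all these RNAs was not tested, so their ratios there may not reflect CMCT.

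mt-Tv, the mitochondrial valine tRNA, was covered at positions found once only. As a whole mt-Tv was not called (log2 fold change 0.36, edgeR adjusted p = 0.64). Its position 19 had 339 and 329 stops in NT and 7594 and 7555 in CMCT, and position 33 had 600 and 583 against 7617 and 7599. The log2 ratios were 3.79 and 2.97, and both sites are uridines. The strongest stop of mt-Tv was position 9, not a uridine, which held 77.84% and 77.68% of its stops in NT and 56.69% and 48.08% in CMCT. Positions 19 and 33 went from 0.6168% and 0.7126%, and 1.092% and 1.263%, to 8.224% and 10.35%, and 8.249% and 10.41%. The CMCT replicates were nearly equal in stops at both sites, although the mt-Tv totals were 92340 and 73000.

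**Figure D4:**
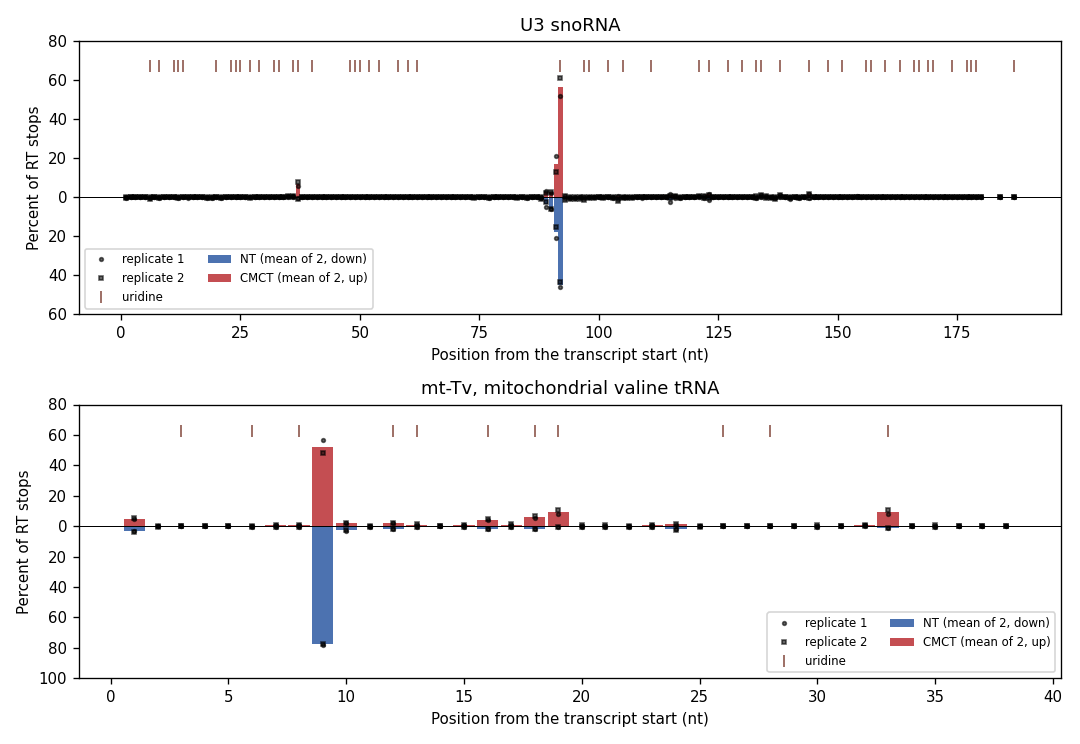
Percent of the RT stops of U3 (top) and mt-Tv (bottom) at each listed position, in nucleotides from the transcript start, with CMCT drawn upward and NT downward; bars are means of 2 libraries, points the replicates and brown ticks the uridines. U3 position 37 and mt-Tv positions 19 and 33 stand out upward only, whereas U3 position 92 and mt-Tv position 9 are strong in both directions.

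Other small RNAs had comparable uridine sites at positions found once, with ratios scaled over such positions. RNase_MRP position 213 had 15 and 9 stops in NT and 248 and 201 in CMCT (log2 ratio 4.12). Snora81, a box H/ACA snoRNA, had 16 and 43 stops at position 100 in NT and 1917 and 421 in CMCT (4.42). The box C/D snoRNA Snord22 had 18 and 9 at position 37 against 721 and 376 (3.43). The sites of this paragraph, like the highest-ratio sites of U3, AC120136.2, AC099934.1 and mt-Tv above, were picked for a high ratio. They were chosen among positions with at least 100 CMCT stops, so CMCT above NT was part of the choice. In RNase_MRP, Snora81 and Snord22, CMCT replicate 1 had more stops than CMCT replicate 2. Rpl8, a protein of the large ribosomal subunit, had 20 and 19 stops at position 804 against 452 and 452 (4.08). mt-Rnr2, the large mitochondrial rRNA, had 1 and 2 stops at the adenosine of position 414 and 556 and 98 in CMCT (6.17).

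The highest ratios of Rorb, Gm12021 and Gm12127, each the RNA with the most stops of its kind, lay in runs of alternating C and A. In Rorb, position 3038 had 139 and 140 stops in NT and 389 and 390 in CMCT. The 25 bases after it occur in at least 100 places of the genome, the highest number counted. In Gm12021, position 654 had 109 and 110 stops against 348 and 348. Equal replicate counts and the same repeat recur in these genes, so these stops cannot be assigned to these RNAs alone. The 5S copy AC141881.4 had its highest ratio at the uridine of position 72, with 5 and 4 stops against 68 and 68.

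The share of stops in the first 5 positions, next to the 5′ end at which RT runs off, was 1.77% and 1.846% in NT and 2.062% and 1.798% in CMCT as a mean over genes, and overlapped. It was lower with CMCT in snRNAs, with 12.52% and 15.24% in NT and 7.893% and 7.353% in CMCT (13.9% ± 1.93 against 7.62% ± 0.382, SD, n = 2 each, exact permutation p = 0.333), and at positions found once, over 8 genes, 6.316% and 6.817% against 5.759% and 4.405%. SnoRNAs, with 25.45% and 25.95% against 26.81% and 23.39%, overlapped. The miRNA precursors had 10.44% and 10.99% in NT and 15.04% and 12.05% in CMCT, the opposite order to that of snRNAs. The groups of miRNA precursors overlapped for the first 10 positions, with 23.69% and 24.76% against 24.62% and 20.67%, and at positions found once, with 3.463% and 4.355% against 5.077% and 3.893%. In mitochondrial tRNAs the first 10 positions, which include position 9, held 54.33% and 58.97% in NT and 41.99% and 39.07% in CMCT.

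Stops per gene were then compared by edgeR. Of 12022 genes tested, 2627 (21.9%) were called at an adjusted p below 0.05, 1070 higher (8.90%) and 1557 lower (13.0%) in CMCT. The log2 fold change was 0.181 at the median of all genes, and -0.00745 with RLE scaling, so values near 0 have no direction. The 4 libraries did not overlap in 63.9% of the genes. Without NT replicate 2 none was called, with 2224 genes at an unadjusted p below 0.05. In that fit the lone NT library is assumed to vary like the CMCT libraries. The sign of the fold change was reversed in 0 of the 1070 higher and 2 of the 1557 lower genes, and the median log2 fold changes, 1.48 and -1.78 with all libraries, were 1.41 and -1.52. These genes were chosen in a fit that held the same remaining libraries, so their signs and sizes were largely set by the choice. At positions found once, 191 of 10289 genes were called (1.86%), 158 higher (1.54%) and 33 lower (0.321%). Without positions of equal replicates none of 10269 was called there by edgeR, with 2123 at an unadjusted p below 0.05 and a smallest adjusted p of 0.0574. The median log2 fold change of the 156 genes called higher that could still be tested was 2.38, from 2.39, and 4 of the 33 called lower had the opposite sign. These values too come from counts that overlap with those of the calls, so they are no separate check. CMCT replicates within 5% of each other in raw stops made up 38.4% of the genes called higher, 21.7% of those called lower and 5.4% of those not called. The part of the shared counts in the calls was not tested beyond these values.

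Pseudogenes were called higher in 425 of 2297 (18.5%) and lower in 50, against the 8.90% and 13.0% of all genes, and with RLE scaling the counts were 405 and 55. Protein-coding genes were called higher in 436 and lower in 1213 of 7918, and lincRNAs in 18 and 79 of 347, with 385 and 1372, and 7 and 92, under RLE. Most calls in these 2 kinds were falls under either scaling. So were most over all genes, with 1070 higher and 1557 lower, and 944 and 1761 under RLE. In the counts of positions found once, protein-coding genes had 53 higher and 23 lower of 7258, pseudogenes 45 and 0 of 2010, and lincRNAs 0 and 3 of 284. The balance of protein-coding genes was turned there, and so was that of all genes, with 158 higher (1.54%) and 33 lower (0.321%). Of 23 snRNAs, 9 were called higher and 2 lower, with 8 and 3 under RLE and 5 and 1 of 16 at positions found once. The rRNA kind had 79 higher and 45 lower of 154, and 77 and 0 under RLE and 43 and 0 of 104 at positions found once. SnoRNAs had 32 higher and 13 lower of 249, but 25 and 22 under RLE, where rises and falls were nearly balanced, and 5 and 2 of 228 at positions found once. The miRNA precursors had 46 higher and 70 lower of 547, and 21 and 106 under RLE and 3 and 1 of 122 at positions found once.

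**Figure D5:**
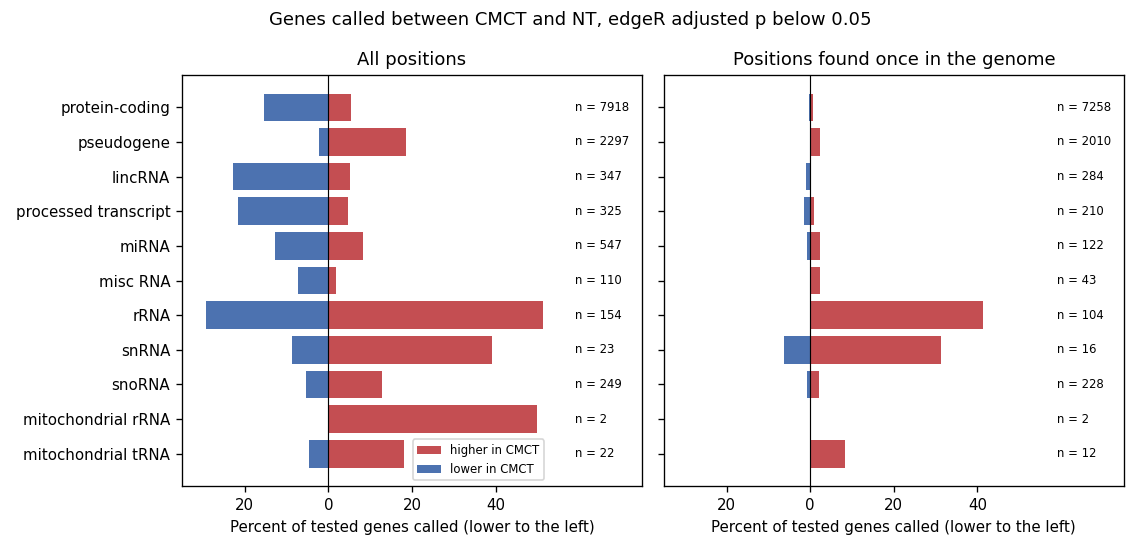
Percent of the tested genes of each RNA kind called higher (right of 0) or lower (left of 0) in CMCT by edgeR at an adjusted p below 0.05, at all positions (left panel) and at positions found once (right panel), with the number tested. The rRNA and snRNA kinds, beside the 2 mitochondrial rRNAs of which 1 was called, have the longest bars for higher genes on the left, and the bars of the other kinds are short on the right.

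The 5S and 5.8S rRNA list shows how copies behave. 5S rRNA is the small RNA of the large ribosomal subunit and has many copies in the genome. Of 134 members, 72 were called higher and 36 lower, with RLE scaling 70 and 0, and at positions found once 37 and 0 of 93. Over all genes 8.90% were called higher and 13.0% lower, and 1.54% and 0.321% at positions found once. The 72 higher members all had CMCT replicates within 5% of each other in raw stops. One of them, n-R5s30, had 7 and 7 stops in NT and 102 and 102 in CMCT (log2 fold change 3.53 ± 0.59 SE, adjusted p = 3.65e-07). The 36 lower members held only 8 distinct sets of counts, so many copies had identical counts. For example, n-R5s101, n-R5s119, n-R5s129 and n-R5s131 each had 125046 and 22369 stops in NT and 41729 and 22695 in CMCT. NT replicate 1 was the high library, and the groups overlapped.

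Among the spliceosomal snRNAs, U6, which forms the catalytic center, was called higher. It had 15541 and 16741 stops in NT and 96073 and 92150 in CMCT (log2 fold change 2.22 ± 0.49 SE, adjusted p = 9.6e-05). U6 has 665 copies under its symbol and none of its stops was at a position found once. U2 had 279770 and 87322 stops against 315549 and 543795 (log2 fold change 1.06, adjusted p = 0.123), with CMCT replicate 2 high. In its stops at positions found once, 5.5% of its stops, U2 was called higher (2.14, adjusted p = 0.0463). U1, which recognizes the 5′ splice site, had 464480 and 363949 stops in NT and 326476 and 247111 in CMCT (-0.88, adjusted p = 0.218). U11, the counterpart of U1 in the minor spliceosome, was called lower, with 1604 and 3615 against 2292 and 909 (-1.22, adjusted p = 0.00686), but not at positions found once (-1.44, adjusted p = 0.183).

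Of 123 box C/D snoRNAs, which guide 2′-O-methylation, 23 were called higher and 10 lower, with a median log2 fold change of 0.242. Over all genes 8.90% were called higher and 13.0% lower. Under RLE scaling 16 were called higher and 14 lower, and at positions found once 2 and 2 of 114. SNORD29 had 37 and 37 stops in NT and 318 and 261 in CMCT (2.62, adjusted p = 1.31e-05), all at positions found once. SNORD12 had 1602 and 2495 stops in NT and 344 and 88 in CMCT (-3.81, adjusted p = 1.58e-14), the largest fall among the genes named by rule. Snord12, a separate locus, had 509 and 720 against 166 and 53 (-3.01, adjusted p = 2e-07), and both were also lower at positions found once. Of 87 box H/ACA snoRNAs, which guide pseudouridylation, 6 were called higher and 1 lower, which became 5 and 6 under RLE and 1 and 0 of 80 at positions found once. SNORA33 had 41 and 55 stops against 300 and 401 (2.60, adjusted p = 1.2e-05). Of the 19 Cajal body RNAs, 2 were called higher, Scarna9 and SCARNA15, and Scarna2 lower.

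Among other structured RNAs, 3 of 6 were called lower, against 13.0% of all genes, and none of the 6 at positions found once, where the median log2 fold change was -1.28. Y_RNA, a partner of the Ro protein, had 273373 and 71215 stops in NT and 78921 and 16986 in CMCT (-2.38, adjusted p = 4.6e-05). Both NT replicates differed widely and NT replicate 2 was below CMCT replicate 1 in raw stops, but not once the counts were scaled to the library total. Telomerase-vert, the telomerase template RNA, had 1600 and 1934 against 1647 and 693 (-1.08, adjusted p = 0.0248), and Vault had 25695 and 35772 against 15548 and 17335 (-1.20, adjusted p = 0.0442). With RLE scaling 2 of the 6 were called. 7SK, which holds the elongation factor P-TEFb, had 326442 and 246998 against 363667 and 192006 and was not called (-0.47, adjusted p = 0.55).

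Mitochondrial RNAs had a mixed pattern. mt-Rnr1, the small mitochondrial rRNA, had 12612 and 29445 stops in NT and 103807 and 95453 in CMCT (1.89 ± 0.48 SE, adjusted p = 0.000829). It was not called with RLE scaling (1.58, adjusted p = 0.0815), without NT replicate 1 (1.10, adjusted p = 0.391) or at positions found once (1.65, adjusted p = 0.173). Of 22 mitochondrial tRNAs, mt-Ty, mt-Tm, mt-Tf and mt-Tl2 were called higher and mt-Tc lower, with RLE scaling 1 and 2, and 1 and 0 of 12 at positions found once. Over all genes the shares were 8.90% higher and 13.0% lower. mt-Tm, for methionine, had 6883 and 6517 against 21471 and 20492 (1.33, adjusted p = 0.0166). mt-Tc, for cysteine, had 523 and 2163 against 561 and 212 (-2.33, adjusted p = 2e-06). None of the 13 mitochondrial mRNAs was called by edgeR.

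In the lists of long RNAs few members were called. None of the 81 cytosolic ribosomal protein mRNAs, the 81 histone mRNAs or the 10 pluripotency mRNAs was called by edgeR, with median log2 fold changes of 0.225, -0.11 and 0.367 against 0.181 over all genes, of which 21.9% were called. Of 74 ribosomal protein mRNAs tested at positions found once, 4 were called lower, against 0.321% of all genes there, with a list median of -0.229. Nanog had 8797 and 7348 stops in NT and 10487 and 6270 in CMCT (-0.35, adjusted p = 0.621). Of 9 snoRNA host RNAs, Gas5, Rian, Snhg12 and Snhg3 were called lower, against 13.0% of all genes, and none of the 9 was called at positions found once, where the median was -0.732. Gas5 had 4982 and 2388 against 3433 and 975 (-1.26, adjusted p = 0.00533). Of the nuclear long noncoding RNAs, Tsix, the antisense of Xist, was called lower with 4854 and 4827 against 1934 and 1858 (-1.67, adjusted p = 0.000198), and Malat1 was not, with 5193 and 1697 against 6224 and 3342 (0.08, adjusted p = 0.911). Only 3.006% of the stops of Tsix were at positions found once, and it was not called at those positions. Col1a1, a fibroblast collagen, was called lower, with 35208 and 35121 against 10901 and 10717 (-2.01, adjusted p = 0.00027). It was not called at positions found once.

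The 10 largest rises with no overlap were Gm12443, n-R5s30, Gm5665, Gm9772, n-R5s97, n-R5s85, D130040H23Rik, Gm15754, AC142112.1 and n-R5s69, from 4.13 down to 3.25 on the log2 scale. Gm5665 went from 3.41 to 1.74 (adjusted p = 0.000895) when its transcript with the most stops was taken, and n-R5s85 from 3.30 to 1.98 at positions found once. They are pseudogenes, 5S copies and little-studied genes with few NT stops. D130040H23Rik had 134 and 134 stops in NT and 1630 and 1599 in CMCT, the most of the 10. Gm9772 had 13 and 13 against 172 and 172. Gm12443 had 4 and 5 against 149 and 71, and was the only one of the 10 in which CMCT replicate 1 clearly exceeded replicate 2.

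The 10 largest falls were SNORD12, AC127323.1, Rhox8, Gm15716, Pigr, Rorb, Ntm, Gm15807, Snord12 and Gm17272, from -3.81 to -3.01. In several of them CMCT replicate 2 stood far below the other libraries. Rhox8, Gm15716, Pigr, Ntm and Gm15807 were not called by DESeq2, with adjusted p from 0.124 to 0.248. Rhox8, a homeobox gene, had 1633 and 5064 stops in NT and 1337 and 19 in CMCT. Pigr, the receptor that carries immunoglobulins across epithelia, had 1184 and 3648 against 966 and 23. Of the stops of these 5 genes, between 0% (Rhox8) and 0.533% (Ntm) were at positions found once, so the stops cannot be assigned to these genes alone. Rorb, a nuclear receptor, was the RNA with the most stops of all protein-coding genes, with 1880499 and 1853333 against 311068 and 264205 (-3.04, adjusted p = 4.34e-06), and 0.005% of its stops were at positions found once. Its call was lost without NT replicate 1 (-3.36, adjusted p = 0.12), with a replicate block (-3.06, adjusted p = 0.155) and at positions found once (-1.41, adjusted p = 0.201). Both Snord12 and SNORD12 had CMCT counts below NT in each library, and Snord12 lay wholly at positions found once. No gene of the lists or of these 20 was called by edgeR without NT replicate 2, the smallest adjusted p being 0.171. The fold changes of the 10 rises stayed between 3.15 and 4.37 without it, and those of the 10 falls between -4.03 and -1.88. The 20 genes were chosen with the same remaining libraries, so this is no separate check.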

How the data were processed

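RT stops were analyzed in 4 CIRS-seq libraries of E14 mESC, 2 CMCT and 2 NT. The deposited values are raw counts of RT stops per transcript position. According to the submitters' processing notes, Bowtie 1.0.0, bedtools 2.17.0 and FastQC 0.10.1 were used, and reads were mapped to mm9 with E14 variants. The treatment of reads with several places is not given in the sources used here. Counts were summed per transcript, and the transcript with the most stops per listed position was kept per symbol. Kinds and sequences were from GENCODE vM1, which held 26792 of 26827 transcripts. The quasi-likelihood test of edgeR 4.0.16 was run on genes that passed filterByExpr, after TMM scaling, with R 4.3.3. The threshold was a Benjamini-Hochberg adjusted p of 0.05, and DESeq2 1.42.0 was an alternative. Shares were compared with two-sided exact permutation tests over libraries. Scripts ran in Python 3.11.15 with numpy 2.4.6, pandas 2.3.3 and scipy 1.17.1, and were tested on simulated data. The genes named were the 10 largest rises and 10 largest falls among called genes with a mean of at least 100 stops in the higher treatment and no overlap, the gene with the most stops per kind, and members of the lists. Members and lists were chosen with earlier results of these data known.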

Additional observations from a re-analysis of the deposited data

How the results depend on the processing

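The count of 2627 called genes was within 1.5 times under 10 alternatives, from 1820 to 3311. It was 191 at positions found once, 0 at positions found once without equal replicates (chosen after seeing the data) and 0 without NT replicate 2, so that leaving out each library in turn gave from 0 to 3311. With the replicate block, 1820 genes were called, 551 higher and 1269 lower. The replicate numbers were not shown to pair the samples, since the replicate differences of NT and CMCT correlated across genes with r = -0.0575. With the numbers crossed, also chosen after seeing the data, 2463 were called. DESeq2 called 2539, 807 of them higher. Of the called genes, 2039 were tested at positions found once and 618 of them had the opposite sign there, and 152 of the 191 calls there were shared in direction with the calls at all positions. None of the 29 genes named as largest rises, largest falls or most stops of their kind reversed. A reversal was counted only for a gene called in either fit. At positions found once, 15 of the 29 kept their call status, 3 lost their call, and the rest were not tested there. The other list members named were not part of this count.

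The difference in share (CMCT minus NT, percentage points) was -3.01 for protein-coding genes, -8.15 over all transcripts and from -5.66 to -0.365 with each library left out. For snRNAs it was 1.39, 7.87 over all transcripts and from 0.274 to 2.51. For snoRNAs it was 0.318, 0.674 over all transcripts, 0.060 at positions found once, 0.0381 there without equal replicates, 0.0257 without U3 (chosen after seeing the data) and from 0.237 to 0.399. For mitochondrial rRNAs it was 0.153, 0.0748 over all transcripts, 1.42 at positions found once, 1.57 there without equal replicates and from 0.0961 to 0.211.

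The uridine difference of 0.26 was 0.14 with a pseudocount of 5, 0.33 and 0.19 with at least 1 and 20 stops per position, 0.32 at positions found once and 0.32 there without equal replicates. It was 0.19 and 0.12 in the same-numbered pairs, 0.15 for CMCT replicate 1 over NT replicate 2, 0.17 for CMCT replicate 2 over NT replicate 1 and from 0.19 to 0.23 with each library left out.

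The difference in the first 5 positions was 0.122 over all kinds, -0.559 for the first 10, -0.105 at positions found once and from -0.01 to 0.254 with each library left out. For snRNAs it was -6.26, -2.17 for the first position, -1.49 at positions found once and from -7.62 to -4.90. Positions found once held 4.534% to 7.444% of the stops on kept transcripts.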
